A study of Sus scrofa with 150 samples.

Results

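The livers with the most and the least stearoyl-CoA desaturase (SCD) transcript were compared in a population of slaughter pigs. The livers were chosen by a measured value, the log2 level of the array's only SCD probe set: all 150 were ranked by it, and the 30 highest (high SCD livers) were set against the 30 lowest (low SCD livers). Those 60 livers lay at the ends of the ranking, and the 90 other livers, which the ranking left between them, served to test the same relation in livers that were in neither group. The pigs belonged to a commercial cross given as Pix(DLxDE), and 1 piece of liver per pig was taken at slaughter and hybridised to 1 Affymetrix Porcine Genome Array. The labels form a single group and name no treatment, genotype, sex, age, litter or array batch. They add 2 traits of each pig, fat area at the long back muscle (cm2) and drip loss (percent of the muscle's weight). The labels name no treatment or feeding state that separates high from low SCD livers, so every test below is a test of association with a measured transcript level. High and low SCD livers are different pigs, but nothing in the labels says which pigs were related.

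SCD is the enzyme of the endoplasmic reticulum that puts the first double bond into saturated fatty acids and so makes oleate and palmitoleate. It acts after acetyl-CoA carboxylase and fatty acid synthase have built the chain from acetyl-CoA with NADPH. In liver these enzymes are induced together after carbohydrate feeding, by insulin through SREBP-1c, by glucose through ChREBP and by liver X receptors, while fasting favours fatty acid oxidation and ketone production. In pigs most fatty acid synthesis takes place in adipose tissue, and the liver contributes less.

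The level of SCD itself is given as a description, since it chose the livers. On the log2 scale, where 1 unit is a 2-fold difference, SCD ran from 12.4 to 13.4 (median 12.56) in high SCD livers, against 7.66 to 10.99 (median 10.32) in low SCD livers. The 90 other livers lay between 11.02 and 12.4. Both limits fell within a continuous run of values: the lowest high liver and the highest of the other livers were both at 12.4, a level shared by 3 livers that were separated by sample order, and the highest low liver at 10.99 lay next to an other liver at 11.02. A gap did occur within the low group. Its 11 lowest livers ended at 9.52, the next liver stood at 10.2, and a single liver at 7.66 lay below the second lowest at 8.74. The other 19 low SCD livers joined the rest without a break. Because these 11 livers stand apart in SCD, the list counts and the genes of largest difference are also given without them.

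**Figure D1:**
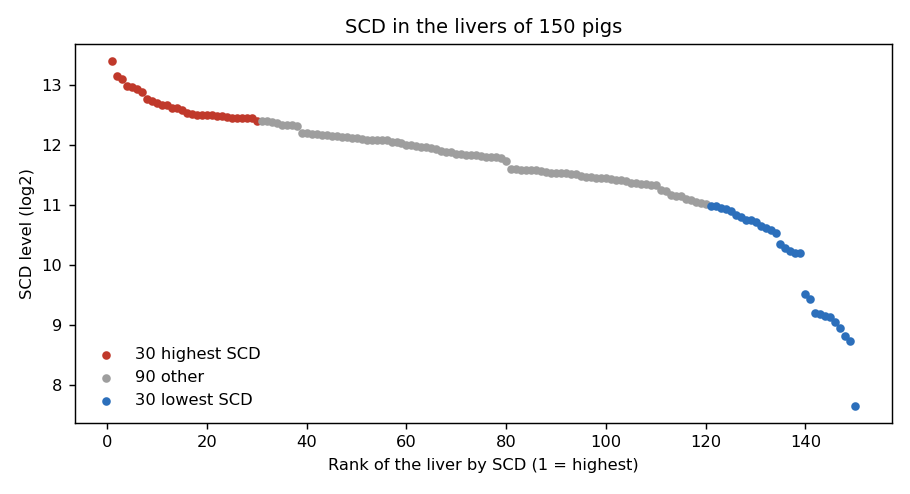
SCD level (log2, vertical axis) of each of the 150 livers against its rank (horizontal axis, 1 is the highest), with the 30 high SCD livers in red, the 90 other livers in grey and the 30 low SCD livers in blue. The curve is continuous at both limits, at 12.4 and between 10.99 and 11.02, and breaks between 10.2 and 9.52, above the 11 lowest livers.

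None of the array measures differed between the groups past an adjusted p of 0.05. An array counted as standing apart when its median correlation with the other arrays lay over 3 median absolute deviations below the typical value. This held for 0 of the high and 4 of the low SCD livers, 3 of them among the 11 lowest, and for 9 of the other livers (Fisher's exact test, two-sided p = 0.112, high against low). The median correlation with the other arrays averaged 0.9696 ± 0.0054 in high and 0.9659 ± 0.00962 in low SCD livers (SD, n = 30 each, two-sided permutation test p = 0.0642, adjusted p = 0.578 over 9 traits and array measures). The 3 prime to 5 prime difference of the GAPDH controls, a sign of RNA integrity, averaged 0.8497 ± 0.196 in high and 0.8937 ± 0.236 in low SCD livers (log2, SD, n = 30 each, permutation p = 0.438). Livers in the upper of 2 clusters of the Y-linked gene EIF1AY numbered 18 of the high and 15 of the low SCD livers (Fisher's exact p = 0.604). Precision is limited by the number of arrays.

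Of 23998 probe sets tested besides SCD, 680 differed between high and low SCD livers (2.83% of those tested, limma, Benjamini-Hochberg adjusted p under 0.05). Higher levels in high SCD livers were found for 308 probe sets (1.28%) and lower levels for 372 (1.55%). Most differences were small. The median was 0.38 on the log2 scale over the probe sets called higher, -0.28 over those called lower and 0.00 over all probe sets. A difference of at least 1.5-fold was called for 57 probe sets higher (0.238%) and 50 lower (0.208%). Counted by gene, with the probe set of smallest p standing for its gene, 2.16% of 6764 genes were higher and 2.93% were lower. These shares are the background for all list counts below. Without the 11 lowest livers they were 1.17% and 0.887%. No gene described here separated the groups completely: the ranges of high and low SCD livers overlapped for each.

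Of 11 measured genes of fatty acid synthesis, 5 were higher in high SCD livers and 0 lower. They were FASN, the synthase itself, ACSS2, which turns acetate into cytosolic acetyl-CoA, and ME1, ACACA and MID1IP1. Differences of 8 of the 11 lay above 0, and the median difference over the 11 was 0.44 on the log2 scale, beside -0.01 over all 6764 genes. Without the 11 lowest livers the count was again 5 higher and 0 lower, with ACSL5 in the place of MID1IP1, where 1.17% of all genes were higher and 0.887% lower. Without the arrays standing apart, with 30 against 30 livers taken anew from the rest, it was 4. FASN and ME1 had been picked as marks of a lipogenic liver together with SCD, so their direction is no independent evidence.

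FASN ran from 11.04 to 12.78 (median 12.24) in high SCD livers, against 8.29 to 12.08 (median 10.46) in low SCD livers. All 30 high livers lay above the median of the low livers and none of the low livers reached the median of the high ones. The means were 12.12 ± 0.422 and 10.44 ± 0.927 (SD, n = 30 each), a difference of 1.68 (SE 0.179, adjusted p = 9.66e-10). The 11 lowest livers averaged 9.50 and the other 19 low livers 10.98, and against those 19 the difference was 1.14 (adjusted p = 7.17e-08). The array holds 4 FASN probe sets: 3 were called and the remaining one differed by 0.17.

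ACSS2 ran from 8.86 to 11.26 (median 9.97) in high SCD livers and from 6.91 to 9.96 (median 8.79) in low SCD livers. Its difference was 1.31 (SE 0.176, adjusted p = 4.25e-07), and a second ACSS2 probe set gave 1.25. It was 0.84 without the 11 lowest livers (adjusted p = 0.00102). As for FASN, all 30 high livers lay above the median of the low livers. ME1, the cytosolic malic enzyme that supplies NADPH for fatty acid synthesis, ran from 5.32 to 7.72 (median 6.35) in high SCD livers, against 4.61 to 6.90 (median 5.66) in low SCD livers. It was higher by 0.71 (SE 0.128, adjusted p = 0.000166), with 29 of 30 high livers above the low median, and by 0.61 without the 11 lowest livers (adjusted p = 0.00608). A second ME1 probe set gave 0.47 (adjusted p = 0.000721). Its means were 5.01 in high and 4.54 in low SCD livers, the second near the array's floor of 4.09, the lowest value in the data.

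ACACA, acetyl-CoA carboxylase 1, which commits acetyl-CoA to fatty acid synthesis, averaged 5.64 ± 0.466 in high and 5.05 ± 0.389 in low SCD livers (SD, n = 30 each). The difference of 0.60 (SE 0.107, adjusted p = 0.000203) came from 1 of its 2 probe sets; the other differed by 0.07. It was 0.52 without the 11 lowest livers (adjusted p = 0.0164). Both means of the called ACACA probe set lay below the average array median, 5.936 in high and 5.925 in low SCD livers. In 1 low liver this probe set was at the array's floor of 4.09. MID1IP1, a protein that promotes polymerisation of acetyl-CoA carboxylase, was higher by 0.45 (adjusted p = 0.0322), which did not pass without the 11 lowest livers (0.48, adjusted p = 0.0999) or without the arrays standing apart (0.41, adjusted p = 0.0753). The other members did not pass the test. OXSM and MCAT, of mitochondrial fatty acid synthesis, differed by 0.28 (adjusted p = 0.0677) and -0.01, and SLC25A1, the mitochondrial citrate carrier, by -0.26 (adjusted p = 0.196). Of the acyl-CoA synthetases on this list, ACSL3 differed by 0.44 and ACSL1 by -0.22, and ACSL5 by 0.20 (adjusted p = 0.275), or by 0.38 without the 11 lowest livers (adjusted p = 0.0145). ACSL4, a synthetase that favours arachidonate, was outside the list and was among the genes with the largest positive differences, at 8.61 ± 0.696 in high and 7.43 ± 0.906 in low SCD livers (SD, n = 30 each, difference 1.18, adjusted p = 7.88e-05, and 0.91 with adjusted p = 0.016 without the 11 lowest livers). ACLY, ACACB and THRSP were not analysed here.

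**Figure D2:**
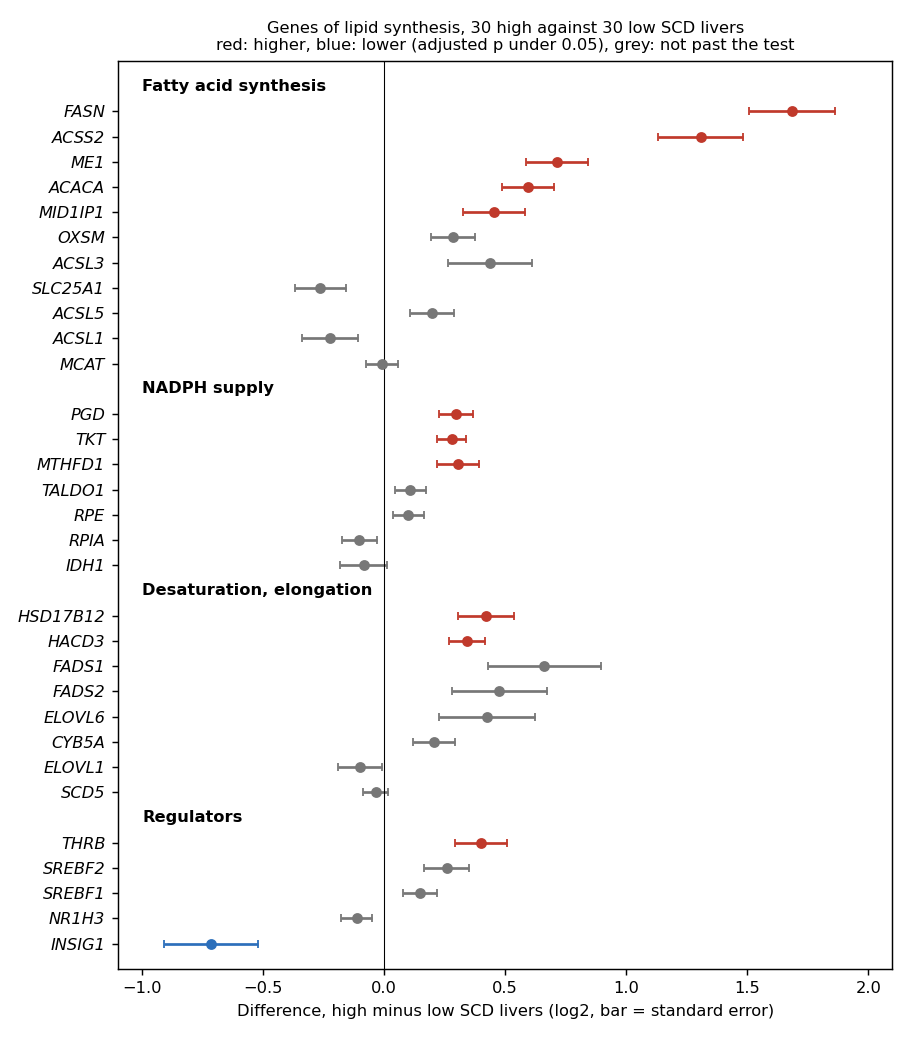
Difference between high and low SCD livers (log2, horizontal axis, points with standard errors, 30 livers a group) for the measured genes of fatty acid synthesis, NADPH supply, and desaturation and elongation, and for 5 of the 12 measured regulators. Filled red and blue points passed the test; FASN at 1.68 and ACSS2 at 1.31 lie farthest to the right and INSIG1 at -0.71 farthest to the left, while SREBF1 at 0.15 did not pass. ME1, which belongs to 2 of the lists, is drawn once.

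Of 8 measured genes that supply NADPH, the reductant of fatty acid synthesis, 4 were higher and 0 lower, with a median difference of 0.19 over the 8: ME1, PGD and TKT of the pentose phosphate pathway, and MTHFD1 of folate metabolism. ME1 was also counted among the genes of fatty acid synthesis and had been picked as a mark of a lipogenic liver. Its call is therefore no independent evidence here, and the counts of the lists overlap. TKT, transketolase, averaged 10.49 ± 0.179 in high and 10.22 ± 0.271 in low SCD livers (SD, n = 30 each, difference 0.28, adjusted p = 0.00299). PGD, 6-phosphogluconate dehydrogenase, was higher by 0.30 (adjusted p = 0.00797) and MTHFD1 by 0.30 (adjusted p = 0.0317, and 0.097 without the arrays standing apart). TALDO1, RPE, RPIA and IDH1 did not pass, with differences between -0.10 and 0.11. Of the 8, 3 were higher without the 11 lowest livers, and MTHFD1 was not (adjusted p = 0.139).

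Of 8 other desaturation and elongation genes measured, HACD3 (difference 0.34, adjusted p = 0.0025) and HSD17B12 (0.42, adjusted p = 0.024), which carry out later steps of chain elongation, were higher and 0 were lower. Both passed without the 11 lowest livers, while HSD17B12 did not pass without the arrays standing apart (0.38, adjusted p = 0.055). FADS1 and FADS2, the desaturases of polyunsaturated fatty acids, differed by 0.66 (adjusted p = 0.113) and 0.48 (adjusted p = 0.21), and ELOVL6, the elongase that feeds SCD with stearate, by 0.42 (adjusted p = 0.281). A second FADS2 probe set differed by -0.10, and the 4 ELOVL6 probe sets ranged from 0.08 to 0.42. Of 4 HACD3 probe sets, 3 were called and the remaining one differed by 0.000333. FADS1 spread widely in low SCD livers, with 7.79 to 10.54 (median 8.90) in high against 5.63 to 10.41 (median 8.36) in low SCD livers. SCD5, a second desaturase gene, lay at 4.72 ± 0.195 in high and 4.76 ± 0.221 in low SCD livers (SD, n = 30 each), near the array's floor of 4.09, with a difference of -0.04.

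Of 12 measured regulators of lipogenesis, the transcript of 1 was higher and that of 1 lower, with a median difference of 0.06. MLXIPL, the gene of ChREBP, was not analysed here, and nor were MLX, NR1H2 and USF1. SREBF1, whose product SREBP-1c drives FASN and SCD, averaged 6.82 ± 0.29 in high and 6.67 ± 0.25 in low SCD livers (SD, n = 30 each, difference 0.15, adjusted p = 0.293). SREBF2, of cholesterol synthesis, differed by 0.26 (adjusted p = 0.129) and NR1H3, liver X receptor alpha, by -0.11 (adjusted p = 0.392). The other SREBF2 probe sets differed by -0.08 to -0.02. THRB, a thyroid hormone receptor, was higher by 0.40 (adjusted p = 0.0213) on 1 of 2 probe sets, the other giving -0.06, and did not pass without the arrays standing apart (0.23, adjusted p = 0.149) or without the 11 lowest livers. INSIG1, which holds SREBP precursors in the endoplasmic reticulum, was lower: it ran from 8.54 to 11.39 (median 10.48) in high SCD livers, against 9.17 to 12.64 (median 10.98) in low SCD livers. Its difference was -0.71 (SE 0.193, adjusted p = 0.0242), and -0.82 without the 11 lowest livers (adjusted p = 0.0231), while a second probe set differed by -0.46 without passing. INSIG1 did not pass with 20 against 20 or 50 against 50 livers, or as a slope over all livers. Cholesterol synthesis, the other branch under SREBP control, had 2 of 11 genes higher (MSMO1 by 0.54, FDPS by 0.53) and 0 lower, with all 11 differences above 0 and a median of 0.40. Without the 11 lowest livers 0 of these 11 genes passed in limma, with a median difference of 0.26.

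Triglyceride genes split between both directions. Of 15 measured genes on the list of triglyceride assembly, 2 were higher and 4 lower, with a median difference of -0.03. The list holds some genes of lipid droplets, but PLIN2 and ABHD5, described below, are outside it. PNPLA3, a lipid droplet protein that SREBP-1c induces and whose human variant is linked to fatty liver, ran from 5.0 to 8.68 (median 6.96) in high SCD livers, against 4.11 to 6.57 (median 5.32) in low SCD livers. It was higher by 1.58 (SE 0.192, adjusted p = 3.5e-08), with 29 of 30 high livers above the low median, and by 1.46 without the 11 lowest livers (adjusted p = 2.67e-05). GPAM, the mitochondrial acyltransferase of the first step of glycerolipid synthesis, averaged 10.19 ± 0.446 in high and 9.39 ± 0.452 in low SCD livers (SD, n = 30 each, difference 0.79, adjusted p = 1.77e-06, and 0.74 without the 11 lowest livers). The microsomal enzyme of the same step, GPAT4, was lower (difference -0.33, adjusted p = 0.0198), as were AGPAT3, of the following acylation step (-0.40, adjusted p = 0.0257), the droplet protein CIDEB (-0.35, adjusted p = 0.0343) and the droplet coat protein PLIN3 (-0.62, adjusted p = 0.000253). Of these 4, PLIN3 alone was called without the 11 lowest livers (-0.46, adjusted p = 0.0281). AGPAT3 (adjusted p = 0.0641) and CIDEB (adjusted p = 0.108) also did not pass without the arrays standing apart, nor did GPAT4 (adjusted p = 0.0607) and CIDEB (adjusted p = 0.13) with blocks of the title number.

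PLIN2, the main coat protein of liver lipid droplets and a target of PPARA, had the largest negative difference of any named gene. It ran from 6.24 to 8.61 (median 6.80) in high SCD livers, against 6.99 to 11.75 (median 8.74) in low SCD livers. All 30 low livers lay above the median of the high livers, and the low group was the more variable, with means of 6.93 ± 0.557 in high and 8.73 ± 1.14 in low SCD livers (SD, n = 30 each, difference -1.80, SE 0.222, adjusted p = 4.78e-08). ABHD5, the co-activator of adipose triglyceride lipase, was lower (-1.09, adjusted p = 7.3e-06). In both, the difference held without the 11 lowest livers (-1.41 for PLIN2 and -0.84 for ABHD5).

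Fatty acid oxidation had 5 of 19 measured genes lower and 1 higher, with a median difference of -0.08. CPT1A, the carnitine palmitoyltransferase that limits entry of long-chain fatty acids into mitochondria, ran from 8.20 to 10.84 (median 9.58) in high SCD livers, against 9.20 to 11.86 (median 10.50) in low SCD livers (difference -1.02, SE 0.161, adjusted p = 1.84e-05). The carnitine carrier SLC25A20 was lower (-0.49, adjusted p = 0.000721), and so were ACADVL (-0.50) and HADHA (-0.34), enzymes of the beta-oxidation spiral, and BDH1 (-0.31), which makes the ketone body beta-hydroxybutyrate. ETFA, an electron carrier of beta-oxidation, went the other way (0.40, adjusted p = 0.00888). Without the 11 lowest livers 2 of the 19 were lower (CPT1A at -0.79 and SLC25A20 at -0.35). Without the arrays standing apart 6 were lower, and with blocks of the title number BDH1 did not pass (adjusted p = 0.0809).

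Among 9 PPARA targets, with and without the 11 lowest livers, CPT1A and PLIN2 were lower and FABP1 was higher. FABP1, the fatty acid binding protein of hepatocytes, ran from 12.46 to 13.32 (median 12.99) in high SCD livers, against 11.13 to 13.00 (median 12.07) in low SCD livers. Its difference was smaller than that of FASN but its spread was narrow, with means of 12.97 ± 0.202 in high and 12.09 ± 0.392 in low SCD livers (SD, n = 30 each, difference 0.88, SE 0.079, adjusted p = 1.85e-12). It was nearly as large without the 11 lowest livers (0.84, adjusted p = 3.62e-10).

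Gluconeogenesis had 3 of 13 genes lower and 0 higher. PC, pyruvate carboxylase, which makes the oxaloacetate used in gluconeogenesis, ran from 8.77 to 10.26 (median 9.54) in high SCD livers, against 9.77 to 11.66 (median 10.40) in low SCD livers. All 30 low livers lay above the median of the high livers (difference -0.97, SE 0.111, adjusted p = 8.46e-09). PCK1, the cytosolic PEP carboxykinase induced in fasting, was lower (-0.67, adjusted p = 0.0143), and so was LDHB, a lactate dehydrogenase subunit (-0.71, adjusted p = 0.001). PC was called without the 11 lowest livers (-0.76, adjusted p = 7.02e-06), whereas PCK1 reached -0.73 with an adjusted p of 0.0503 and LDHB -0.37 with an adjusted p of 0.0695. Glycolysis had 1 of 16 genes higher (PDHB, of the pyruvate dehydrogenase complex, by 0.31) and 0 lower. That is 6.25% of the list, beside 5.09% of all genes called. PDHB did not pass without the 11 lowest livers (adjusted p = 0.0551) or without the arrays standing apart (adjusted p = 0.0531). Of 14 genes of insulin and nutrient signalling 0 passed in either direction.

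**Figure D3:**
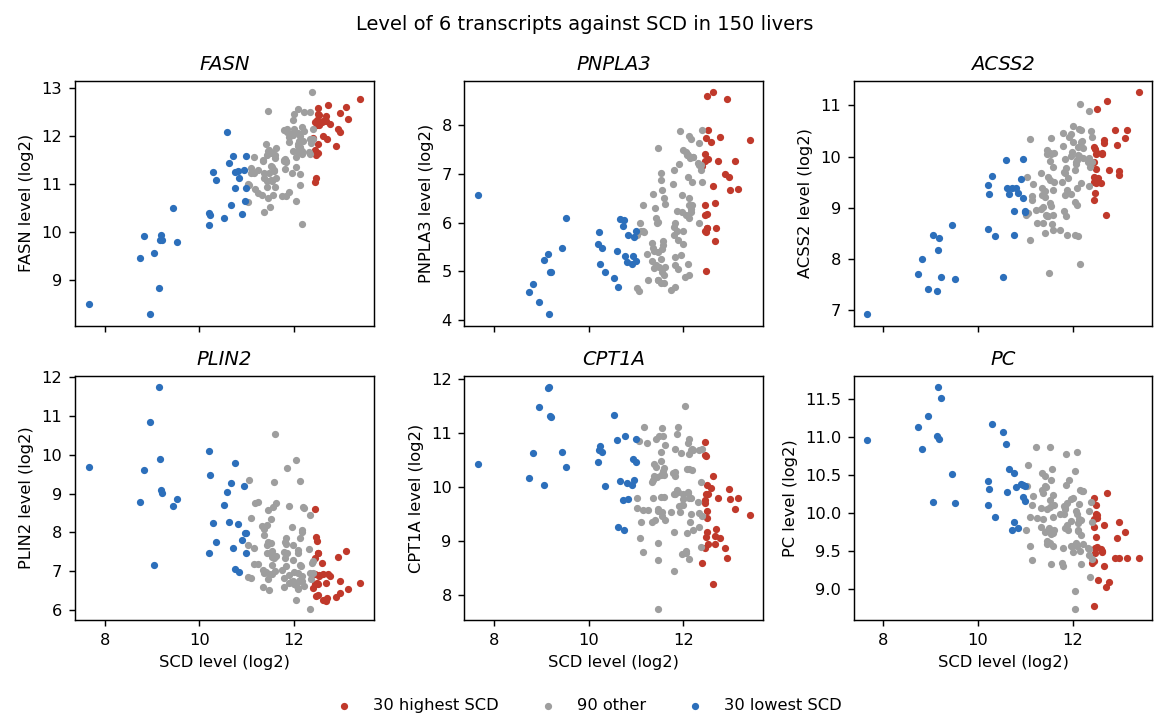
Level of FASN, PNPLA3, ACSS2, PLIN2, CPT1A and PC (log2, vertical axes) against that of SCD (log2, horizontal axes), 1 point per liver, with high SCD livers in red, the 90 other livers in grey and low SCD livers in blue. FASN and ACSS2 run along the whole range of SCD; PNPLA3 is low and flat in the low SCD livers, and PLIN2, CPT1A and PC are highest among the livers of lowest SCD.

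Secreted and transported lipid carriers also moved in both directions, with 3 of 19 genes higher (FABP1, APOA2 and the HDL receptor SCARB1) and 3 lower (APOA4, LCAT and PLTP). APOA4, an apolipoprotein of triglyceride-rich particles that fasting induces in mouse liver, ran from 7.57 to 13.49 (median 11.20) in high SCD livers, against 9.05 to 13.76 (median 13.20) in low SCD livers. The high livers were spread over a wide range while 29 of 30 low livers lay above their median (difference -1.79, SE 0.309, adjusted p = 0.000102, and -1.59 with adjusted p = 0.0164 without the 11 lowest livers). LCAT, which esterifies the cholesterol of HDL, was lower (-0.45, adjusted p = 0.00011), with all 30 low livers above the high median. Without the 11 lowest livers 1 of the 19 was higher (FABP1) and 2 were lower (APOA4 and LCAT, the second by -0.32, adjusted p = 0.0226). APOA2 (adjusted p = 0.0503), SCARB1 (adjusted p = 0.0617) and PLTP (adjusted p = 0.239) did not pass then, and PLTP did not with blocks of the title number either (adjusted p = 0.178). Bile acid genes had 3 of 8 higher: CYP7A1, which catalyses the slowest step from cholesterol to bile acids (1.46, adjusted p = 0.0224), AMACR (0.67, adjusted p = 0.0253) and the bile acid uptake carrier SLC10A1 (0.40, adjusted p = 0.0439). CYP7A1 was variable in both groups, from 4.21 to 10.27 (median 9.10) in high and from 4.09 to 10.88 (median 7.36) in low SCD livers. The bile acid count changed with the livers used: it was 1 of 8 without the 11 lowest livers and 0 of 8 without the arrays standing apart (CYP7A1 0.71 with adjusted p = 0.395, and 1.24 with adjusted p = 0.0539).

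**Figure D4:**
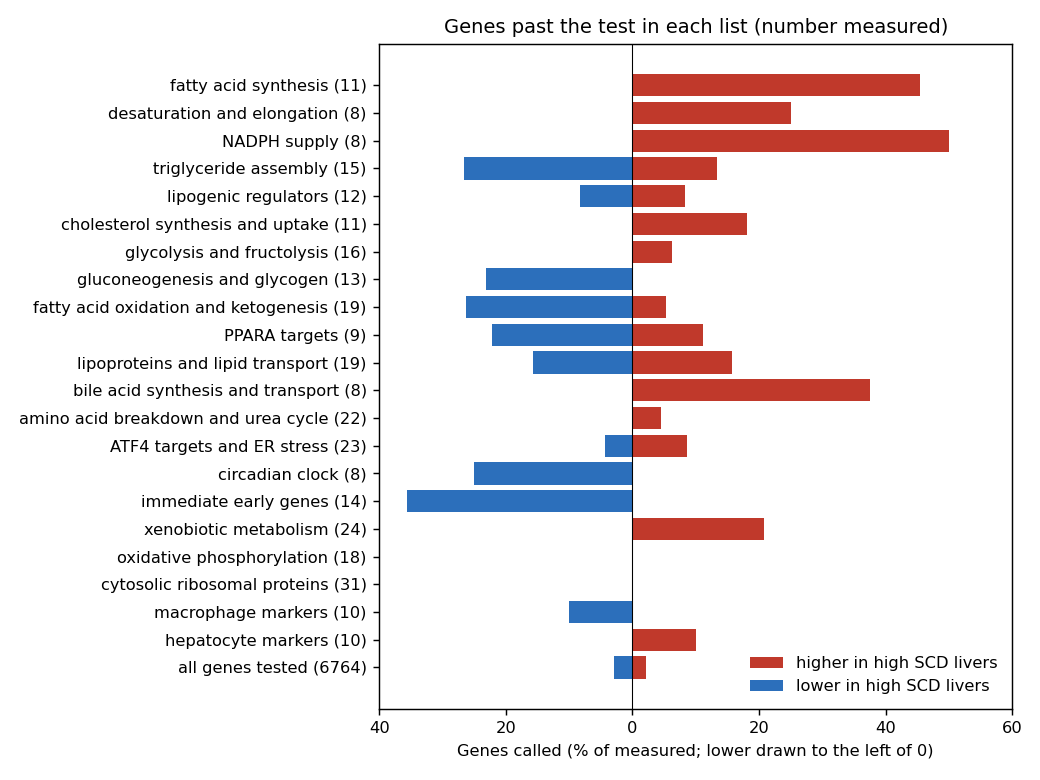
Share of the measured genes of each list that passed the test (percent, horizontal axis), higher in high SCD livers to the right in red and lower to the left in blue, with the number of genes measured in brackets. Fatty acid synthesis, NADPH supply and desaturation have red bars alone, gluconeogenesis, clock and immediate early genes blue bars alone, and all 6764 genes at the bottom give the background of 2.16% higher and 2.93% lower.

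The largest differences outside these pathways included carriers and enzymes of varied function. CA3, carbonic anhydrase 3, had the largest positive difference of any named gene, with 6.91 to 10.98 (median 8.97) in high SCD livers, against 4.09 to 8.70 (median 6.97) in low SCD livers (difference 2.02, SE 0.261, adjusted p = 1.64e-07). The difference was 1.63 when the 11 lowest livers were left out (adjusted p = 9.4e-05). CA3 is best known from skeletal muscle and is 1 of the 10 muscle markers measured. The other 9 did not pass, MYH2, MYL1 and MYLPF lay near the floor, and the summed level of the 10, CA3 included, ran from 9.17 to 11.3 in high and from 8.42 to 9.81 in low SCD livers. CYP1A1, a cytochrome of the aryl hydrocarbon receptor, was higher by 1.25 (adjusted p = 0.0219) but did not pass without the arrays standing apart (0.93, adjusted p = 0.0819). TSKU, a secreted liver protein, was higher by 1.03 (adjusted p = 0.00728). PGM2, a phosphopentomutase, was higher by 0.84 (adjusted p = 3.94e-06) and ALDH1A1, a retinaldehyde dehydrogenase, by 0.74 (adjusted p = 6.13e-06). With the 11 lowest livers left out, the differences were 1.26 for CYP1A1 (adjusted p = 0.048), 1.18 for TSKU, 0.79 for PGM2 and 0.69 for ALDH1A1, and all 4 passed.

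Among the largest negative differences, MFSD2A, a carrier of lysophosphatidylcholine that fasting induces in mouse liver, ran from 5.2 to 10.92 (median 7.22) in high SCD livers, against 5.75 to 11.49 (median 9.57) in low SCD livers (difference -1.72, adjusted p = 0.000698). Its difference was -1.44 without the 11 lowest livers (adjusted p = 0.0444), and MFSD2A did not pass with 50 against 50 livers. SLC25A30, a mitochondrial carrier, ran from 5.47 to 8.26 (median 6.45) in high and from 6.58 to 10.06 (median 8.12) in low SCD livers. Its difference of -1.60 (SE 0.184, adjusted p = 8.46e-09) was nearly the same without the 11 lowest livers (-1.58). PMM1, a phosphomannomutase, was lower (-1.39, adjusted p = 2.17e-06), as were SLC5A6, the multivitamin carrier for biotin and pantothenate (-0.80, adjusted p = 1.76e-05), and PPIF, cyclophilin D of mitochondria (-0.73, adjusted p = 7.51e-06). PMM1 differed by -1.02, SLC5A6 by -0.64 and PPIF by -0.57 without the 11 lowest livers, and all 3 passed. The largest difference of any probe set without a gene name was -2.00 (adjusted p = 5.03e-07), and the largest positive one was 1.25 (adjusted p = 0.00588).

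The 90 livers between the groups tell whether the same genes follow SCD where it varies less. There SCD had an SD of 0.379 and each probe set's slope was fitted per log2 unit of SCD. Of 23998 probe sets, 8 had a positive slope (0.0333%) and 1 a negative slope (0.00417%) past the same limma threshold, and 1912 had an unadjusted p under 0.05. By gene, 4 of 6764 passed (0.0591%). Of those 9 probe sets, 8 were also called between high and low SCD livers, in the same direction (88.9% of the 9 and 1.18% of the 680). The named ones were FASN on 2 probe sets, PNPLA3, ACSS2 and TLR4, the receptor for bacterial lipopolysaccharide. The slopes were 1.33 for PNPLA3 (SE 0.217, adjusted p = 0.000258), 0.75 for FASN (SE 0.127, adjusted p = 0.000431), 0.78 for ACSS2 (SE 0.17, adjusted p = 0.0397) and 0.27 for TLR4 (SE 0.0547, adjusted p = 0.0149). TLR4 was chosen after its values were seen and differed by 0.32 between high and low SCD livers (adjusted p = 3.71e-05). A probe set without a gene name, which had the smallest p between the groups (difference 0.64, adjusted p = 1.45e-12), had a slope of 0.32 (adjusted p = 0.000258).

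Signs carried over more often than calls. Of the 308 probe sets higher in high SCD livers, 276 (89.6%) had a positive slope in the 90 other livers, beside 46.3% of all probe sets. Of the 372 lower ones, 281 (75.5%) had a negative slope, beside 53.7% of all. These shares are descriptions, since probe sets move together. In the 90 other livers ACACA had a slope of 0.39 (adjusted p = 0.0992), PGD of 0.32 (adjusted p = 0.117), ME1 of 0.44 (adjusted p = 0.451) and FABP1 of 0.34 (adjusted p = 0.247), of which none passed. The second ME1 probe set, the dimmer one, had a slope of -0.00477 there (adjusted p = 0.994). For genes that were lower in high SCD livers, none of the slopes passed: they were -0.30 for PC (adjusted p = 0.564), -0.42 for PLIN2 (adjusted p = 0.645), -0.39 for APOA4 (adjusted p = 0.817) and 0.02 for CPT1A (SE 0.198, adjusted p = 0.989). Whether these slopes differ from those between the groups was not tested.

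**Figure D5:**
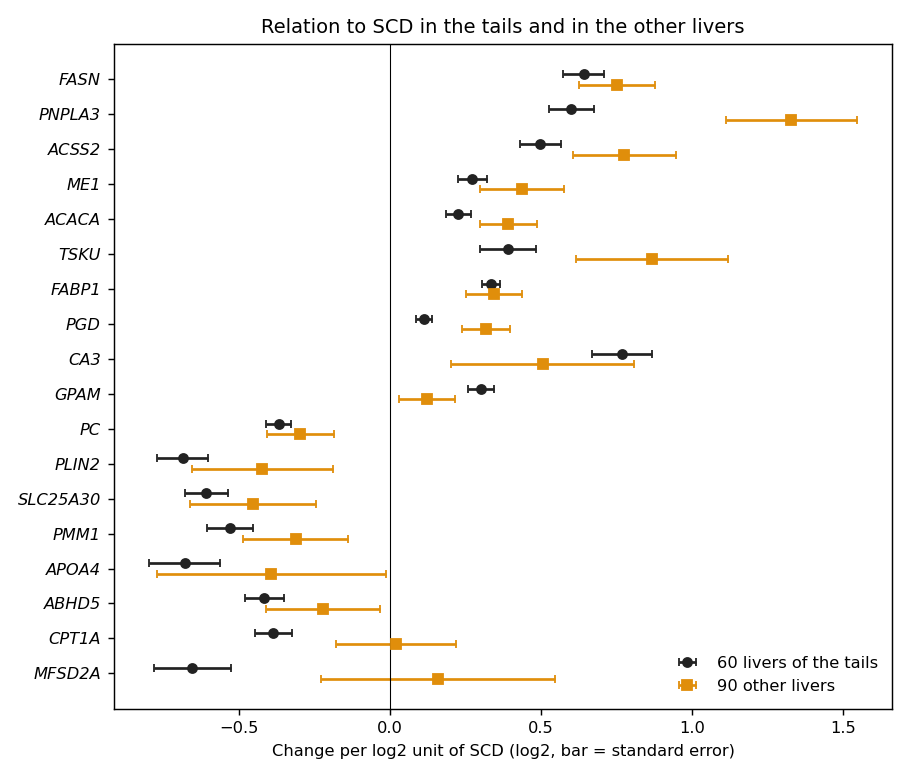
Change per log2 unit of SCD (log2, horizontal axis, points with standard errors) for 18 genes, in the 60 high and low SCD livers (black circles) and in the 90 other livers (orange squares). FASN, ACSS2 and PNPLA3 lie to the right of 0 in both, and CPT1A lies at 0.02 in the 90 other livers and well below 0 in the 60.

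Correlations of SCD with FASN and ME1 are given over all livers above the gap and over the 90 other livers. The 11 lowest are left out because they lie below the gap. FASN and SCD correlated at r = 0.682 and rho = 0.698 over the livers above the gap (permutation p = 1e-05 for each, the smallest these permutations can give, adjusted p = 2.4e-05 over 12 relations), and at r = 0.525 and rho = 0.564 over the 90 other livers (permutation p = 1e-05, adjusted p = 2.4e-05). Without the 2 livers farthest from the median of SCD, r was 0.657 and 0.5. ME1 and SCD correlated at r = 0.439 and rho = 0.435 over the livers above the gap (permutation p = 1e-05, adjusted p = 2.4e-05) and at r = 0.31 and rho = 0.337 over the 90 other livers (permutation p = 0.00288 and 0.00122, adjusted p = 0.00576 and 0.00244). Without the 2 farthest livers r was 0.441 and 0.351. These ME1 values are of 1 of its 2 probe sets, the one with the slope of 0.44. Correlations of the second ME1 probe set were not computed. Livers were also split into blocks of 100 by the pig's number in the sample titles, whose meaning is not given, and 7 blocks held both high and low SCD livers. Some of those blocks held a lone low SCD liver, so their differences rest on few pigs. Within those, the difference was positive in 7 of 7 blocks for FASN (0.84 to 2.55), ACSS2, PNPLA3, ME1, ACACA, FABP1 and CA3, and negative in 7 of 7 for PLIN2 (-2.70 to -0.70), CPT1A, PC, APOA4 and PCK1. All these genes had already been called in the same livers, so their signs within blocks are a description and no separate support. The share of all probe sets with the same sign in every block was not computed. Drip loss, whose pooled difference did not pass, was also positive in 7 of 7.

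The 11 livers of lowest SCD carried part of the list of differences. Leaving them out left 0.713% of probe sets higher and 0.608% lower; 42.2% of the 308 and 34.4% of the 372 probe sets called with them were called again. This comparison has fewer livers as well as a narrower range of SCD. Fitted as a slope over all livers above the gap, 1.77% of probe sets had a positive and 1.29% a negative slope that passed. A curved relation, tested by a squared term of SCD over all 150 livers, was called for 509 probe sets with a positive sign (2.12%) and 329 with a negative one (1.37%). Without the single lowest liver at 7.66 these fell to 0.442% and 0.258%, so that 1 liver decided most of the calls of curvature. The array of that liver was among those standing apart. Its median correlation with the other arrays, 0.928, was the lowest of all 150. PNPLA3 had a positive curvature (adjusted p = 0.000919), which did not pass without that liver (adjusted p = 0.0903), and FASN had none that passed (adjusted p = 0.696).

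Markers of the cells that a piece of liver can hold are set beside all 6764 genes, of which 5.09% passed the test. In bulk tissue, fewer cells of a type and less RNA per cell cannot be told apart. ALB, albumin, lay at 13.92 ± 0.084 in high and 13.94 ± 0.0771 in low SCD livers (SD, n = 30 each). Of 10 hepatocyte markers, 1 was higher (HNF4A, by 0.34, adjusted p = 0.0465) and 0 lower. HNF4A did not pass without the 11 lowest livers (adjusted p = 0.21), without the arrays standing apart (adjusted p = 0.0637) or with fat area as covariate (adjusted p = 0.0729). Their summed level ran from 16.4 to 16.6 in both groups. Of 7 adipocyte markers 0 passed, with summed levels of 9.05 to 9.71 in high and 8.98 to 9.74 in low SCD livers, and LEP and LPL lay near the floor. Of 10 macrophage markers, all had differences below 0 (median -0.21) and 1 was lower (CD14, -0.20, adjusted p = 0.0389), with summed levels of 12.7 to 13.9 (median 13.0) in high and 12.6 to 14.0 (median 13.3) in low SCD livers. CD14 passed without the 11 lowest livers (-0.25, adjusted p = 0.0476) but not with 20 against 20 or 50 against 50 livers. The part of these cells in the other results was not tested. Of 8 bile duct markers 1 was higher (ANXA4, by 0.41, adjusted p = 0.00544), which did not pass without the 11 lowest livers (adjusted p = 0.0612). Of 3 B and plasma cell markers 1 was lower (XBP1, which hepatocytes also express, -0.27, adjusted p = 0.0212), with summed levels of 11.1 to 12.3 in high and 11.4 to 12.5 in low SCD livers. Of 11 stellate cell, 7 endothelial, 10 T and NK cell, 6 neutrophil, 4 red blood cell and 5 exocrine pancreas markers 0 passed.

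The traits of the pigs differed between the groups by less than their spread. Fat area was 15.75 ± 3.48 cm2 in high and 14.7 ± 2.65 cm2 in low SCD livers (SD, n = 30 each), a difference of 1.05 cm2 (two-sided permutation test p = 0.2, adjusted p = 0.715). Drip loss was 5.618 ± 2.09% in high and 5.595 ± 1.76% in low SCD livers (SD, n = 30 each), a difference of 0.0223 percentage points (permutation p = 0.964, adjusted p = 0.964). Within the 7 blocks of title numbers drip loss was higher in high SCD livers in 7 of 7, by 0.337 to 1.89 percentage points, unlike the pooled difference, and with block means removed by 0.421 (permutation p = 0.355). Fat area was higher in 3 of the blocks and lower in 4. As above, some blocks held a lone low SCD liver. Over the 90 other livers SCD correlated with fat area at r = 0.0494 and rho = 0.0539 (permutation p = 0.645 and 0.616) and with drip loss at r = 0.0559 and rho = 0.0692 (permutation p = 0.602 and 0.519).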

How the data were processed

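Per the labels, liver RNA of 150 pigs was hybridised to 1 array each. The authors deposited log2 values per probe set; the submitters' processing notes name GCOS 1.1.1, while how probes were summarised and normalized is not given in the sources used here. A floor at 4.09 held 2.75% of values. The values were used as deposited. Of 24123 probe sets, 124 controls and the SCD probe set were left out. Symbols were taken from the platform annotation: 10069 probe sets had 1 symbol (9961 matched by Entrez ID to the pig gene table), 198 had several and 13732 none.

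Livers were ranked by SCD, with ties by sample order. limma 3.58.1 (lmFit, eBayes with trend) in R 4.3.3 compared the groups and fitted slopes, without covariates, with p-values adjusted by Benjamini-Hochberg over 23998 probe sets and called under 0.05. All p-values are two-sided and permutation tests drew 100000 resamples. The fit was tested on simulated data. The groups, gene lists and tests were chosen with earlier results of these data known. Named were members of the lipogenic, NADPH and regulator lists, up to 6 of smallest p of each other list, and the 15 largest differences in each direction among called genes. The probe set of smallest p stood for a gene. Summed marker levels are log2 of summed linear values. Alternatives covered normalization, filters, eBayes settings, covariates, group size, and arrays left out.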

Additional observations from a re-analysis of the deposited data

How the results depend on the processing

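The shares of the 23998 probe sets called higher (1.28%) and lower (1.55%) moved by over 1.5 times under these settings: 2.20% and 2.44% with the 3 prime to 5 prime control differences as covariates, 1.94% higher with 20 against 20 livers, 4.23% in each direction as slopes over all 150 livers, 0.238% and 0.208% at 1.5-fold or more, and 0.713% and 0.608% without the 11 lowest livers, an alternative chosen after seeing the data. In the 90 other livers the share with a negative slope (0.00417%, 1 probe set) was 0% in limma with a filter on mean level or without the arrays standing apart, and 0.00833% with title number blocks or with the Y-linked mean; 1912 probe sets had an unadjusted p under 0.05 there. The drip loss difference became -0.138 without the arrays standing apart (permutation p = 0.796). Causes of these shifts were not tested. Of 83 named genes called, 61 kept their call without the arrays standing apart, 60 at 50 against 50 livers and 45 without the 11 lowest livers, and 0 reversed under any setting. FASN, ACSS2, ME1, ACACA, PNPLA3, GPAM, FABP1, CA3, PLIN2, CPT1A, PC, APOA4, SLC25A30, PMM1 and ABHD5 passed under all 16 settings that compare groups, with FASN between 1.14 and 2.19. Ranking livers by several SCD probe sets was not run, since the array has 1. No paired analysis was possible because the labels form a single group. Values near the floor understate differences.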

Other observations

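Outside lipid metabolism, some genes of other lists passed the test between high and low SCD livers. Of all 6764 genes, 2.16% were higher and 2.93% lower. Of 14 immediate early genes, which are switched on within minutes of a stimulus, 5 were lower and 0 higher, and all 14 differences lay below 0 (median -0.38). BTG2 was at 9.23 ± 0.578 in high and 9.86 ± 0.585 in low SCD livers (SD, n = 30 each, difference -0.63, limma adjusted p = 0.00615), ATF3 differed by -0.63 and JUN by -0.53. Without the 11 lowest livers 2 of the 14 were lower. Of 8 circadian clock genes, NFIL3 (-0.57, adjusted p = 0.00534) and ARNTL (-0.44, adjusted p = 0.0496) were lower, with and without the 11 lowest livers. ARNTL did not pass with fat area as covariate (-0.39, adjusted p = 0.0902), nor NFIL3 with 50 against 50 livers. The time of day of sampling is not in the labels.

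Of 24 genes of xenobiotic metabolism, 5 were higher (CYP1A1, CYP3A39, FMO1, GSTA1 and SULT1E1) and 0 lower, with 2 of 24 higher without the 11 lowest livers and also 2 without the arrays standing apart. PSPH (0.63) and PSAT1 (0.51), enzymes of serine synthesis, were higher while XBP1, a factor of the unfolded protein response, was lower (-0.27). Neither PSPH nor PSAT1 passed without the 11 lowest livers, and neither PSPH (adjusted p = 0.063) nor XBP1 (-0.21, adjusted p = 0.0687) without the arrays standing apart. HMOX1, heme oxygenase 1, was lower (-0.36, adjusted p = 0.0226), but not with 50 against 50 livers. Catalase (CAT) was higher by 0.16 (adjusted p = 0.0329), which did not pass without the 11 lowest livers (adjusted p = 0.178), without the arrays standing apart (adjusted p = 0.0501), with blocks of the title number (adjusted p = 0.119) or with fat area as covariate (adjusted p = 0.05). Of 14 acute phase, 17 interferon, 18 oxidative phosphorylation and 31 cytosolic ribosomal protein genes, 0 passed in limma.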
